A study of Homo sapiens with 6 samples.

Results

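Collagens, laminins and the enzymes that hydroxylate and crosslink them were followed in MB157, a long-established line of human breast cancer cells of the triple-negative type. They comprised 43 genes of the 57209 in the deposited tables, chosen by name: 24 collagens, 6 laminin chains, 7 other matrix glycoproteins and proteoglycans, and 6 enzymes. The list includes cartilage genes known as SOX9 targets. A second set held the 22 genes whose exons overlap an exon of a listed gene on the other strand, each kept as a separate value. These overlapped 19 of the 43 genes.

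The control group was MB157-Cas9 cells with a control sgRNA, and the other group was MB157-Cas9 cells with an sgRNA against SOX9, with 3 libraries each. Per the series' design text, the cells stably expressed SOX9, were harvested after 4 days, and were sorted for the top 50% of sgRNA-expressing cells. All 6 libraries share the line, the Cas9 named in the sample titles and the puromycin in the medium. The titles name Cas9 and the design text names SOX9 as what the cells express, and whether a SOX9 transgene was present is not clear from these sources, so the SOX9 row below may or may not include one. The labels call the replicates technical and do not say whether the Cas9 line was a clone, so p-values measure the spread between these libraries only. The comparison asks which genes depend on SOX9, a transcription factor that binds DNA through an HMG box.

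Collagens are trimers of chains with a repeating glycine motif. Fibrillar collagens bear tension in connective tissue, while collagen IV and the laminins build the basement membrane under epithelia. Prolyl 4-hydroxylases stabilise the collagen helix in the endoplasmic reticulum, and lysyl oxidases crosslink the secreted fibres. In cartilage, SOX9 acts with SOX5 and SOX6 on the genes of collagens II, IX and XI and of aggrecan. In breast tumours, matrix comes from both fibroblasts and tumour cells.

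Each value belongs to a row, that is, to the gene on whose strand the fragments were counted. The libraries came from the v2 Pico version of a stranded kit, in which the first read is antisense to the RNA, and the headers give strand setting 1, which counts a fragment on the strand of its first read. In 12 of the 22 overlapping pairs the row on the other strand held more counts than the listed gene's own row. P4HA1, a catalytic subunit of prolyl 4-hydroxylase, had 0 to 6 counts per library, while ENSG00000237768, which shares 47 bp of exon with it on the other strand, had 138 to 197. By this kit and setting, a fragment would count in rows on the strand opposite to its RNA. Row values therefore need not give the level of the named gene's RNA. Which strand the RNA behind a row's counts came from was not tested, and every value below is that of a row.

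Libraries held 776125 to 1018854 counts, and control libraries had a count for 18326 to 18818 genes against 20207 to 21082 with the SOX9 sgRNA. The SOX9 row had 38, 52 and 44 counts in control libraries 1 to 3 and 37, 39 and 60 with the SOX9 sgRNA (log2 fold change -0.22, SE 0.26, edgeR adjusted p = 0.70), with overlapping groups, so the level of this row did not separate the groups. All 6 epithelial markers passed the filter on low counts, with a summed level of 1011 to 1105 CPM in control and 842 to 1058 CPM in SOX9 sgRNA libraries. CPM is a row's count scaled to 1000000 counts over the tested rows of its library, with TMM factors that correct for differences in composition. Rows under the filter were scaled by the same totals. VIM, a mesenchymal intermediate filament gene, fell from 225 ± 18.5 to 72.9 ± 9.03 CPM (SD, n = 3 each; log2 fold change -1.61, SE 0.17, edgeR adjusted p = 8.26e-12). KRT7 and KRT19 among the epithelial markers also fell (-0.97 and -0.74). The epithelial markers EPCAM (-0.68), KRT8 (0.11), KRT18 (0.33) and CDH1 (-0.05) were not called. The mesenchymal markers CDH2 and ZEB1 were under the filter, with 0 to 4 and 5 to 10 counts per library. The part of the called markers in the results below was not tested. ESR1, the estrogen receptor, had 0 to 7 counts per library and PGR, the progesterone receptor, 3 to 7, whereas ERBB2 had 141 to 213. The fibroblast markers PDGFRA, PDGFRB, DCN, LUM and THY1 summed to at most 7.62 CPM, LUM being at 0, and the endothelial markers VWF and CDH5 were at 0 in every library. Of 5 chondrocyte markers, SOX5 and HAPLN1 were at 0, COMP and CNMD had 0 to 4 counts per library, and SOX6 had 47 to 120.

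Promoter sequence from RefSeq is shown for COL6A2, whose row rose, for COL5A3, opposite which the steepest rise lay, and for the collagen IV pair, since both rows opposite COL4A2 fell. The stretches run 5′ to 3′ on the strand named, on GRCh38.p14, a later build than that of the counts. Capitals mark matches to ACAATG and ACAAAG, the hexamers that SOX proteins bind, to the GC box GGGCGG and to the TATA box TATAAA, each on both strands. COL5A3, 250 bases before the start, chr19:10010505-10010754, minus strand:
COL5A3: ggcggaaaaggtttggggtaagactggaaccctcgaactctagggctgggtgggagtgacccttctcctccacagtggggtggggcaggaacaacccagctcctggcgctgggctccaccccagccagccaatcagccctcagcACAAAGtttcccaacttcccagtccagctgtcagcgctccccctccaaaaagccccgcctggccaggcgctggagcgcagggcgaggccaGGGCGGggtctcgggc
COL6A2, 250 bases before the start, chr21:46097862-46098111, plus strand:
COL6A2: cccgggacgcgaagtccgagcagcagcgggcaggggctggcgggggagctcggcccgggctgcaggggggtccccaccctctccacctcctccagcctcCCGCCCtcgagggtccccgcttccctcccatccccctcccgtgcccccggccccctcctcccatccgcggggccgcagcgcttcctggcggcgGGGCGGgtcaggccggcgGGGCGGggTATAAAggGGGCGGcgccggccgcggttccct
COL4A1 and COL4A2 are transcribed away from each other out of a shared promoter, and the 126 bases between their starts, chr13:110307158-110307283, are given on the plus strand, that of COL4A2:
COL4A1 and COL4A2: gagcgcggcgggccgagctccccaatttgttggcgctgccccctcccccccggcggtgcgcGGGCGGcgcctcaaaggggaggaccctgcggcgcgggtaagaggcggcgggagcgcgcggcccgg

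COL5A3 thus held 1 ACAAAG, COL6A2 and the collagen IV stretch neither SOX hexamer, and COL6A2 a TATA box with 4 GC boxes. The table had 43 starts for 31 of the listed genes. ACAAAG lay within 250 bases before 6 of these starts (14.0%), in COL5A3, COL9A2, COL10A1, COL17A1 and HSPG2, against 13.7% of all 35116 starts. ACAATG lay before 2 (4.65%), in COL10A1 and LAMB3, against 9.29% of all starts, and GGGCGG before 29 (67.4%) against 42.6%. A match is a description of the letters and not a binding site.

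Most rows of the 43 genes held few counts. LAMA5, the laminin alpha 5 chain, alone took 75.1% of their 12627 counts, and the other 42 shared 3147. COL3A1 was at 0 in every library. Only 18 genes passed the filter on low counts and were tested, and the 25 that did not had at most 51 counts over the 6 libraries, with a median of 15. Per kilobase of exon, the mean level was 132 CPM for LAMA5, 31.6 CPM for CHADL and 9.56 CPM for COL18A1, while the other 40 lay between 0 and 7.59 CPM.

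**Figure D1:**
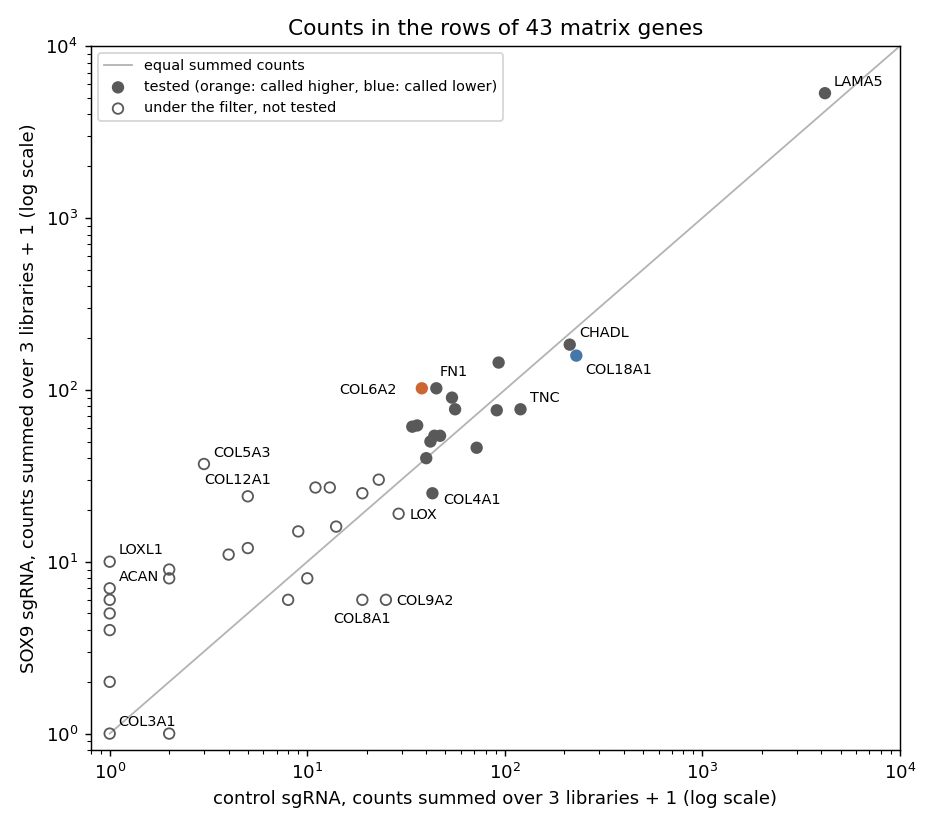
Counts of the 43 matrix genes summed over the 3 control libraries (x axis) and the 3 SOX9 sgRNA libraries (y axis), each plus 1 on a log scale, with the line of equal counts. Filled points are the 18 tested genes, with COL6A2 called higher and COL18A1 called lower; open points such as COL5A3, with 2 counts against 36, were under the filter.

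With the SOX9 sgRNA the COL6A2 row rose and the COL18A1 row fell, and no other of the 18 tested rows passed the threshold, an adjusted p of 0.05. That is 2 of 18, where 9.01% of all 7959 tested rows were called (238 or 2.99% higher, 479 or 6.02% lower). The median log2 fold change, SOX9 sgRNA over control, was 0.03 over the 18 rows and 0.01 over all tested rows. Groups did not overlap in 7 of the 18, against 24.5% of all tested rows. The plot of levels by library gives all 18.

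**Figure D2:**
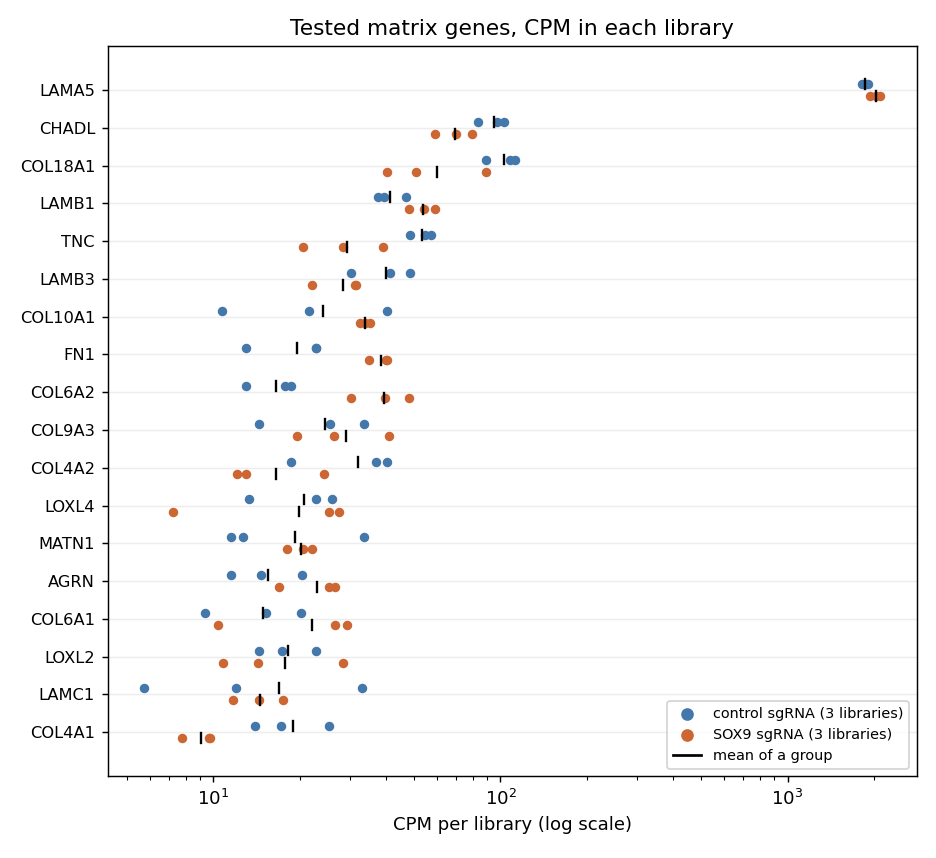
CPM (log scale, x axis) of the 18 tested matrix genes in each of the 3 control (blue) and 3 SOX9 sgRNA (orange) libraries, with the mean of each group as a bar. COL6A2 and FN1 show separate groups with the SOX9 sgRNA libraries higher, TNC and CHADL separate groups with them lower, and LAMA5 lies far above the rest.

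Among network and basement membrane collagens, COL6A2 encodes the alpha 2 chain of beaded-filament collagen VI (ENSG00000142173, chromosome 21, 47518011 to 47552763, plus strand, GRCh37). It had 14, 14 and 9 counts in control libraries 1 to 3 and 33, 37 and 31 with the SOX9 sgRNA. Every SOX9 sgRNA library stood above every control library. The level went from 16.5 ± 3.09 to 39.3 ± 8.96 CPM (SD, n = 3 each), a log2 fold change of 1.23 (SE 0.36, adjusted p = 0.018 by edgeR). No annotated exon lies opposite COL6A2. The call was lost without control library 3 (1.08, edgeR adjusted p = 0.075) and without SOX9 sgRNA library 1 (1.21, edgeR adjusted p = 0.055) or 2 (1.06, edgeR adjusted p = 0.14). It was also lost with DESeq2 (1.24, DESeq2 adjusted p = 0.062) and with no filter on low counts (1.20, edgeR adjusted p = 0.071).

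The partner chains of collagen VI are encoded by COL6A1, which ends 93047 bp before COL6A2, and by COL6A3. COL6A1 had 7, 12 and 14 counts in control and 22, 8 and 30 in SOX9 sgRNA libraries, with overlapping groups and a log2 fold change of 0.59 (SE 0.44, adjusted p = 0.49 by edgeR). COL6A3 had 13 control counts against 15 and was not tested. Of the collagen VI chains only COL6A2 was called. COL6A3 could not be called, and whether COL6A1 changed differently from COL6A2 was not tested.

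COL18A1 encodes the basement membrane collagen whose C-terminal fragment is endostatin (ENSG00000182871, chromosome 21, 46825052 to 46933634, plus strand). The control libraries had 84, 70 and 75 counts and the SOX9 sgRNA libraries had 74, 31 and 52. SOX9 sgRNA library 1 reached the lowest control library, so the groups overlapped. The level went from 103 ± 12.4 to 60.01 ± 25.7 CPM (SD, n = 3 each; log2 fold change -0.78, SE 0.23, edgeR adjusted p = 0.019). The call was lost without control library 1 (-0.72, edgeR adjusted p = 0.093), without SOX9 sgRNA library 2 (-0.58, edgeR adjusted p = 0.17) or 3 (-0.66, edgeR adjusted p = 0.13), with plain library totals for scaling (-0.59, edgeR adjusted p = 0.088) and with DESeq2 (-0.78, DESeq2 adjusted p = 0.082). Without SOX9 sgRNA library 1 it was -1.17 (edgeR adjusted p = 0.00078).

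COL4A1 and COL4A2 encode the chains of the commonest collagen IV network. COL4A1 had 19, 11 and 12 counts in control libraries against 8, 6 and 10, and the groups did not overlap (log2 fold change -1.04, SE 0.53, edgeR adjusted p = 0.25). COL4A2 had 14, 29 and 28 against 10, 10 and 25, with overlapping groups (log2 fold change -0.92, SE 0.39, edgeR adjusted p = 0.14). Neither difference passed the threshold. COL8A1, a short-chain collagen of vessel walls and the eye, had 18 control counts against 5, of which SOX9 sgRNA library 2 held 0. Its ratio, SOX9 sgRNA over control, was 0.24 (exact 95% counting interval 0.069 to 0.66), and under the filter it was not tested. Without the filter on low counts it was not called (log2 fold change -2.00, SE 1.01, edgeR adjusted p = 0.56). Exact counting intervals, given for rows under the filter, cover counting error only.

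Rows of the fibrillar collagens were at the limit of detection, and none of the 9 was tested. These counts do not give the level of the collagens' own RNA. COL1A1, the main chain of bone and skin collagen, had 2 to 7 counts per library, COL1A2 had 0 to 2 and COL3A1, a chain of vessels and hollow organs, had 0. COL5A1 had 1 control count against 8, COL5A2 0 against 1 and COL11A1 1 against 0. COL5A3 was the exception among them. It encodes the alpha 3 chain of collagen V, which regulates fibril diameter (ENSG00000080573, chromosome 19, 10070237 to 10121147, minus strand). It had 2, 0 and 0 counts in control libraries and 13, 13 and 10 with the SOX9 sgRNA, so that the groups did not overlap. The ratio was 15.3 (exact 95% counting interval 3.94 to 131). Without the filter on low counts the log2 fold change was 3.72 (SE 0.95, adjusted p = 0.0072 by edgeR), where 2.06% of rows were called. After leaving out a library COL5A3 entered the test in 4 fits, in each passing the filter only through its counts in SOX9 sgRNA libraries. It was called without control library 1 (6.53, edgeR adjusted p = 0.011) and without SOX9 sgRNA library 3 (3.95, edgeR adjusted p = 0.038), and not called without control library 2 (3.19, edgeR adjusted p = 0.070) or 3 (3.27, edgeR adjusted p = 0.052).

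Of the 10 cartilage genes on the list, 4 were tested and 0 were called, where 9.01% of all tested rows were called, so that 0 of 4 does not set them apart. At an unadjusted edgeR p under 0.05 the count was 1, CHADL, where 1632 of all 7959 tested rows were under it. DESeq2 also gave 0 calls. COL2A1, the cartilage fibrillar collagen and a textbook SOX9 target, had 3, 3 and 1 counts in control libraries and 4, 1 and 0 with the SOX9 sgRNA. Its ratio was 0.61 (exact 95% counting interval 0.15 to 2.22), an interval that includes equality and spans changes of several-fold. ACAN, the aggrecan core protein gene, had 0 in every control library and 1, 2 and 3 counts with the SOX9 sgRNA. Against a floor of 3 counts over the control group the ratio is 1.70, with the SOX9 sgRNA counts taken as exact. It is therefore not a lower bound. ACAN was under the filter, and a fit with no filter left it uncalled (edgeR adjusted p = 0.62, log2 fold change 3.95, SE 2.16). COL11A2 had 0, 0 and 1 against 0, 2 and 5, and COL11A1 a single count in control library 3.

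The collagen IX genes, whose products decorate collagen II fibrils, were more varied. COL9A2 had 4, 12 and 8 counts in control libraries and 5, 0 and 0 with the SOX9 sgRNA, a ratio of 0.18 (exact 95% counting interval 0.053 to 0.47). SOX9 sgRNA library 1 lay within the control range. Without the filter its log2 fold change was -2.41 (SE 0.91, adjusted p = 0.22 by edgeR). COL9A3 had 25, 20 and 10 against 34, 15 and 27 counts, with overlapping groups (log2 fold change 0.24, SE 0.37, edgeR adjusted p = 0.79). Its sign turned without control library 3 (-0.03) or SOX9 sgRNA library 1 (-0.09). COL9A1 had 0 except for 4 counts in SOX9 sgRNA library 3.

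The other tested cartilage genes were CHADL, COL10A1 and MATN1. CHADL, a leucine-rich repeat protein gene of cartilage, had 73, 81 and 58 counts in control libraries and 49, 61 and 72 with the SOX9 sgRNA, and after scaling the groups did not overlap. It went from 94.6 ± 10.0 to 69.5 ± 10.1 CPM (SD, n = 3 each; log2 fold change -0.45, SE 0.22, edgeR adjusted p = 0.21). COL10A1, the collagen of hypertrophic cartilage, had 8, 17 and 28 against 27, 26 and 36 counts (log2 fold change 0.50, SE 0.36, edgeR adjusted p = 0.47), or 0.13 without control library 1 and 1.04 without control library 3. Its control libraries spread more widely than the SOX9 sgRNA libraries. MATN1, cartilage matrix protein, had 25, 10 and 8 against 15, 17 and 21 (log2 fold change 0.07, SE 0.42, edgeR adjusted p = 0.95). Without control library 1 MATN1 stood at 0.72, and without control library 2 or 3 at -0.18 or -0.19, none of them called.

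The remaining collagens were all under the filter. COL12A1, associated with fibrils, had 0, 2 and 2 counts in control libraries and 14, 0 and 9 with the SOX9 sgRNA, a ratio of 4.89 (exact 95% counting interval 1.67 to 19.4). SOX9 sgRNA library 2 had none, so its groups overlapped. Without the filter on low counts COL12A1 was not called (log2 fold change 2.14, SE 0.99, edgeR adjusted p = 0.45). COL16A1 had 3 counts against 10, COL7A1, the anchoring fibril collagen of skin, 9 against 7, and COL17A1, a hemidesmosome protein gene, 18 against 24. For these 3 the interval of the ratio included equality.

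Of 4 tested laminin rows 0 were called, which at 9.01% over all tested rows does not set them apart. LAMA5, part of the laminins of adult epithelial basement membranes, had 1359, 1483 and 1328 counts in control libraries and 1740, 1571 and 1999 with the SOX9 sgRNA. The groups did not overlap, but the difference was small: 1869 ± 49.1 against 2028 ± 75.8 CPM (SD, n = 3 each; log2 fold change 0.12, SE 0.067, edgeR adjusted p = 0.33). With library totals it was 0.30 (edgeR adjusted p = 0.00085), a scaling that moved the median of all tested rows from 0.01 to 0.19. LAMB1 had 35, 31 and 26 against 45, 37 and 61 counts, again without overlap (log2 fold change 0.39, SE 0.28, edgeR adjusted p = 0.46). LAMB3, a chain of the laminin that anchors epidermis, had 31, 38 and 21 against 26, 17 and 32 (log2 fold change -0.50, SE 0.32, edgeR adjusted p = 0.40). LAMC1, the gamma chain shared by most laminins, had 9, 26 and 4 against 12, 9 and 18 counts, with control library 2 apart from the other two (log2 fold change -0.22, SE 0.49, edgeR adjusted p = 0.87). Without that library the sign turned (0.69, edgeR adjusted p = 0.63). LAMB2 had 22 against 29 counts, and LAMA3, the partner of LAMB3, 0 except for 5 counts in SOX9 sgRNA library 3.

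Fibronectin and tenascin C lay just outside the threshold, in opposite directions. FN1, the adhesive glycoprotein of provisional matrix, had 17, 18 and 9 counts in control libraries and 29, 31 and 41 with the SOX9 sgRNA. The groups did not overlap, with 19.5 ± 5.68 against 38.4 ± 2.99 CPM (SD, n = 3 each; log2 fold change 0.96, SE 0.35, edgeR adjusted p = 0.071). TNC, an anti-adhesive glycoprotein of tumour stroma, had 43, 38 and 38 counts against 17, 30 and 29. Its groups did not overlap either, with 53.4 ± 4.69 against 29.2 ± 9.30 CPM (SD, n = 3 each; log2 fold change -0.87, SE 0.30, edgeR adjusted p = 0.056). FN1 was called with library totals (1.15, edgeR adjusted p = 0.021) and TNC without SOX9 sgRNA library 2 (-1.12, edgeR adjusted p = 0.034). AGRN, a heparan sulfate proteoglycan gene that overlaps ENSG00000242590 by 402 bp on its own strand, had 11, 16 and 8 against 22, 13 and 26 counts (log2 fold change 0.56, SE 0.42, edgeR adjusted p = 0.50). HSPG2, which encodes perlecan, had 3, 4 and 3 against 8, 13 and 5 counts and was not tested.

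Rows of the crosslinking and hydroxylating enzymes held few counts and no call. LOX, lysyl oxidase, had 12, 7 and 9 counts in control libraries and 7, 4 and 7 with the SOX9 sgRNA, a ratio of 0.55 (exact 95% counting interval 0.28 to 1.02). LOXL1, its elastin-directed relative, had 0 in all control libraries and 3, 2 and 4 counts with the SOX9 sgRNA. Against the floor of 3 counts over the group the ratio is 2.55, again with the SOX9 sgRNA counts taken as exact. Without the filter on low counts LOXL1 was not called (log2 fold change 4.51, SE 2.04, edgeR adjusted p = 0.44). LOXL2, a relative active on collagen IV, had 13, 18 and 10 against 9, 11 and 29 counts (log2 fold change -0.01, SE 0.44, edgeR adjusted p = 1.00). LOXL4 had 46 counts against 53 (log2 fold change -0.04, SE 0.43, edgeR adjusted p = 0.97). Both changed sign with the library left out, from -0.54 to 0.24 for LOXL2 and from -0.31 to 0.34 for LOXL4. P4HA1 had 4 counts against 11 and P4HA2, another prolyl 4-hydroxylase subunit, 12 against 26, both under the filter.

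On the other strand of the listed genes, 1 row rose and 6 fell among the 14 of 22 that passed the filter. That is 7 of 14, where 9.01% of all tested rows and 11.3% of the tested rows with an exon opposite were called. The listed genes were chosen with earlier results of these data known, so this contrast is a description and not a test. Groups did not overlap in 10 of the 14, against 24.5% of all tested rows, and the median log2 fold change was -0.03. The rise lay opposite COL5A3 and the falls opposite LOX, COL4A2, LAMB1 and COL18A1. COL4A2 and LAMB1 each have 2 such rows, which share that gene and are not independent of each other in this sense. Of the 22 pairs, 9 overlap at their 3′ ends, 2 at their starts, and in 11 a gene lies within the span of the other.

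**Figure D3:**
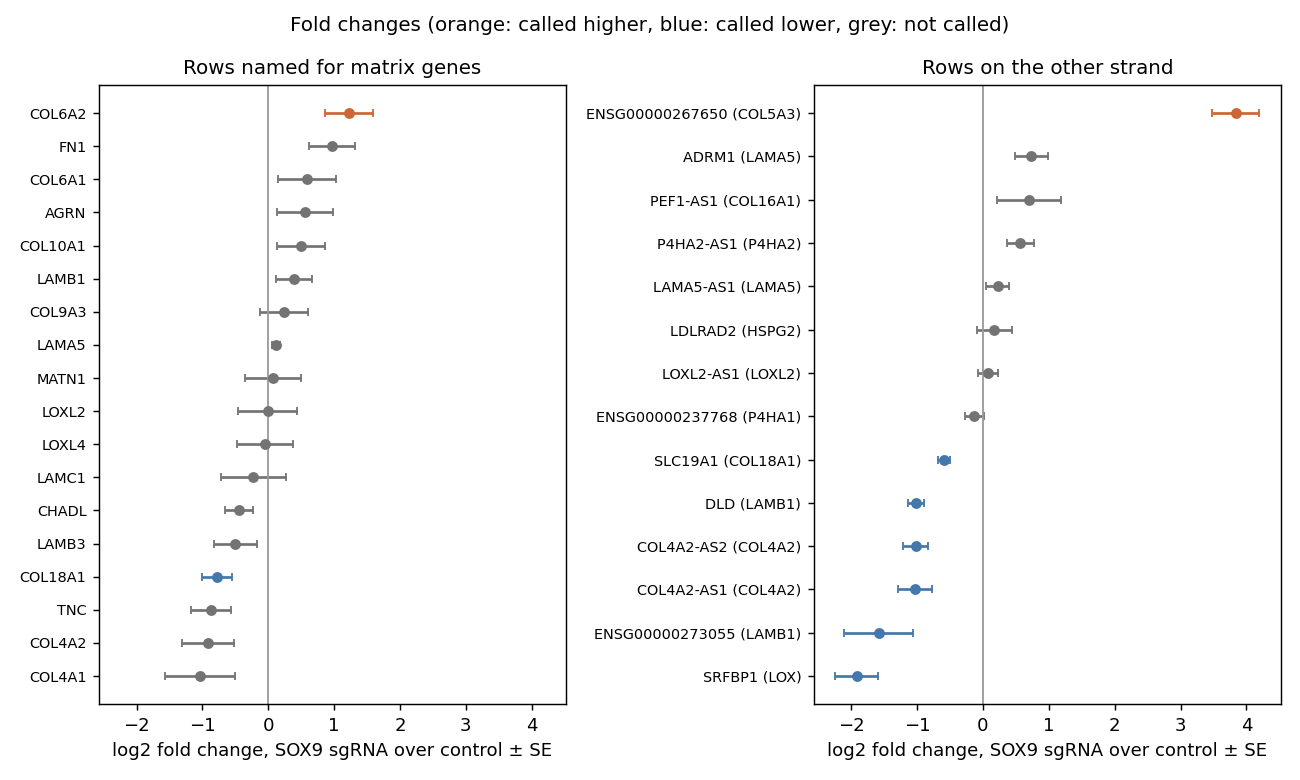
Log2 fold change, SOX9 sgRNA over control (x axis), with its standard error, for the 18 tested matrix genes (left) and the 14 tested rows on the other strand (right, with the matrix gene in brackets). ENSG00000267650 opposite COL5A3 stands at 3.84 and SRFBP1 opposite LOX at -1.92, farther from 0 than any matrix gene's own row.

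ENSG00000267650 (chromosome 19, 10106673 to 10107839, plus strand) is an antisense transcript gene within the span of COL5A3. Their exons share 270 bp in 4 stretches. It had 5, 3 and 6 counts in control libraries and 84, 67 and 90 with the SOX9 sgRNA. All 3 SOX9 sgRNA libraries stood more than 10 times above every control library in counts. The level went from 6.37 ± 2.42 to 92.0 ± 7.99 CPM (SD, n = 3 each), a log2 fold change of 3.84 (SE 0.36, adjusted p = 1.01e-13 by edgeR). The call held in each of the 6 fits without 1 library (3.55 to 4.09). This row passed the filter only through its counts in the SOX9 sgRNA libraries. The COL5A3 row, given above, also had its counts almost only in SOX9 sgRNA libraries, 36 against 2.

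SRFBP1 encodes a cofactor of serum response factor, and it runs towards LOX, with 138 bp of exon shared at the 3′ ends (chromosome 5, 121411099 to 121411236). SRFBP1 had 45, 49 and 41 counts in control libraries and 8, 14 and 20 with the SOX9 sgRNA, without overlap. It fell from 60.4 ± 1.66 to 15.8 ± 5.35 CPM (SD, n = 3 each; log2 fold change -1.92, SE 0.33, edgeR adjusted p = 9.59e-06). The LOX row itself, with 28 control counts against 18, was also without overlap after scaling but was not tested. Only 4.44% of the SRFBP1 exon length is shared with LOX, and where in the row the counts lie was not tested.

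Both rows opposite COL4A2 fell by similar amounts. COL4A2-AS2 (chromosome 13, 111108743 to 111115634, minus strand) shares 14 bp of exon with COL4A2 and had 129, 117 and 95 counts in control libraries against 68, 69 and 58. It went from 152 ± 18.1 to 76.0 ± 17.4 CPM (SD, n = 3 each; log2 fold change -1.02, SE 0.19, edgeR adjusted p = 5.63e-05). COL4A2-AS1 (111154922 to 111160526) shares 81 bp and had 47, 76 and 63 against 32, 37 and 37 counts (log2 fold change -1.03, SE 0.25, edgeR adjusted p = 0.0030). In both, every SOX9 sgRNA library lay below every control library. The values of COL4A1 (-1.04) and COL4A2 (-0.92) beside them did not pass the threshold.

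At the LAMB1 locus the strands differed. DLD, the E3 subunit of pyruvate dehydrogenase, runs towards LAMB1 and shares 70 bp at the 3′ ends. It had 310, 301 and 238 counts in control libraries and 145, 147 and 202 with the SOX9 sgRNA, and fell from 379 ± 35.9 to 187 ± 11.4 CPM (SD, n = 3 each; log2 fold change -1.02, SE 0.12, edgeR adjusted p = 1.33e-09). ENSG00000273055 (chromosome 7, 107582561 to 107583185, plus strand), which shares 221 bp with LAMB1, had 19, 17 and 14 against 8, 7 and 4 counts (log2 fold change -1.59, SE 0.53, edgeR adjusted p = 0.044). Its call was lost in each of the 6 fits without 1 library (-1.82 to -1.25, edgeR adjusted p from 0.053 to 0.19). It was also lost with library totals (edgeR adjusted p = 0.074), with no filter on low counts (edgeR adjusted p = 0.099) and with DESeq2 (DESeq2 adjusted p = 0.090). The LAMB1 row had the other sign, 0.39, without a call.

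SLC19A1, the reduced folate carrier, overlaps COL18A1 tail to tail over 1401 bp of exon (chromosome 21, between 46913486 and 46933472). It held the most counts of all rows opposite, 661, 733 and 605 in control libraries and 448, 535 and 561 with the SOX9 sgRNA. No SOX9 sgRNA library reached a control library. SLC19A1 fell from 894 ± 32.2 to 594 ± 88.1 CPM (SD, n = 3 each; log2 fold change -0.59, SE 0.090, edgeR adjusted p = 7.41e-07). The call held in each of the 6 fits without 1 library. Own and opposite rows of COL18A1 were thus both called lower, and those of COL5A3 both had more counts with the SOX9 sgRNA, as the plot of pairs shows.

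**Figure D4:**
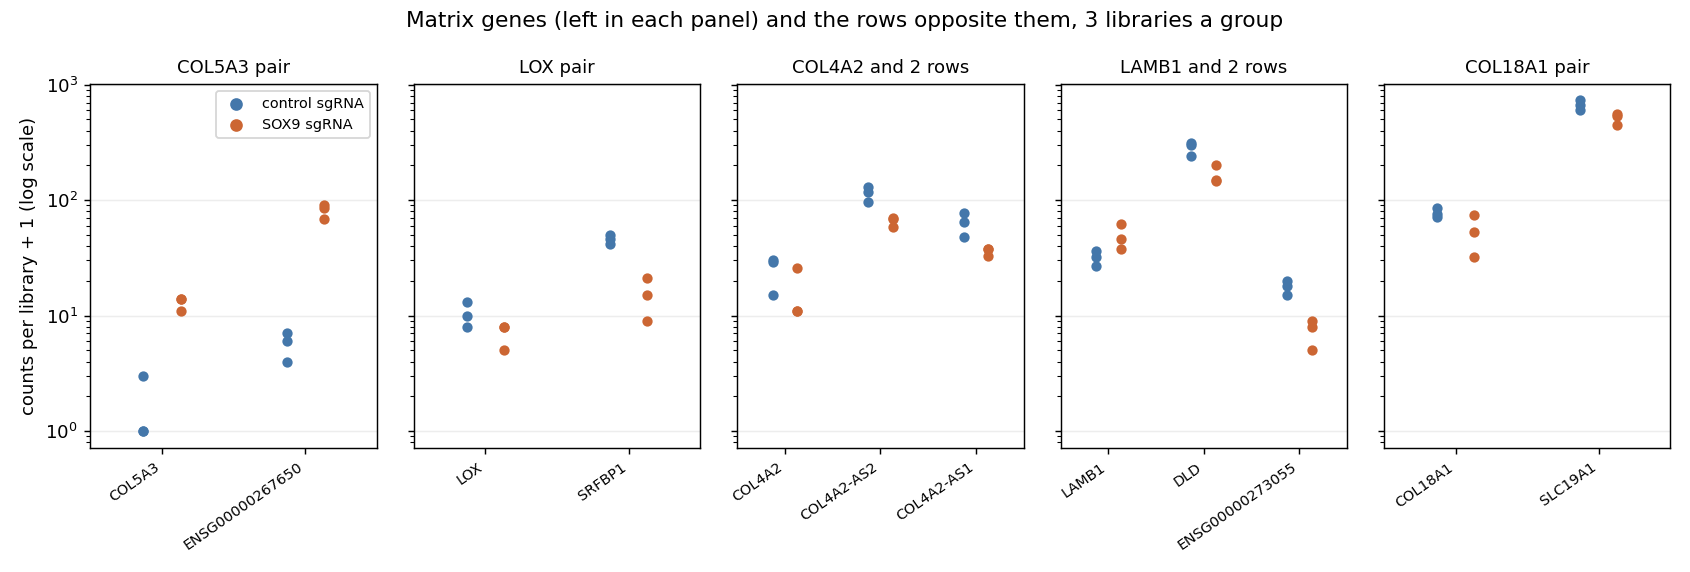
Counts per library plus 1 (log scale, y axis) of 5 matrix genes, left in each panel, and of the rows opposite them, in 3 control (blue) and 3 SOX9 sgRNA (orange) libraries. The 2 rows of the COL5A3 panel are higher with the SOX9 sgRNA, those of the LOX, COL4A2 and COL18A1 panels tend lower, and in the LAMB1 panel LAMB1 lies higher while both rows opposite lie lower.

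The other 7 tested rows opposite were not called. P4HA2-AS1, which shares 548 bp with P4HA2, had 52, 55 and 46 counts in control libraries and 80, 86 and 100 with the SOX9 sgRNA, without overlap (68.5 ± 2.03 against 102 ± 8.63 CPM, SD, n = 3 each; log2 fold change 0.57, SE 0.21, edgeR adjusted p = 0.080). ADRM1, a proteasome ubiquitin receptor gene whose end overlaps that of LAMA5 over 244 bp, had 40, 42 and 22 against 56, 60 and 88 counts (log2 fold change 0.73, SE 0.25, edgeR adjusted p = 0.053). With library totals these were called, ADRM1 at 0.92 (edgeR adjusted p = 0.0097) and P4HA2-AS1 at 0.75 (edgeR adjusted p = 0.011). LAMA5-AS1 had 78, 114 and 79 against 109, 131 and 129 counts (log2 fold change 0.23, edgeR adjusted p = 0.51). LOXL2-AS1 had 196, 120 and 122 against 173, 143 and 229 (0.07, edgeR adjusted p = 0.86; -0.10 to 0.32 with 1 library left out), and ENSG00000237768 opposite P4HA1 had 159, 161 and 138 against 158, 138 and 197 (-0.13, edgeR adjusted p = 0.67). LDLRAD2 opposite HSPG2 stood at 0.17 and PEF1-AS1 opposite COL16A1 at 0.69. The 8 rows under the filter, among them MATN1-AS1, TCFL5 and L3MBTL2, had at most 22 counts in any library.

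Other genes of matrix biology, in 6 lists of which 154 of 155 entries matched, gave 3 higher and 3 lower calls among 42 tested, where 9.01% of all tested rows were called (2.99% higher, 6.02% lower). Among 8 tested collagen and laminin receptors 3 were lower and 0 higher, with a median log2 fold change of -0.41. DAG1, dystroglycan, which binds laminin, had 31, 28 and 34 counts in control libraries and 17, 14 and 18 with the SOX9 sgRNA (log2 fold change -1.16, SE 0.34, edgeR adjusted p = 0.019). DDR1, a collagen-binding receptor tyrosine kinase, had 85, 89 and 61 against 47, 60 and 68 counts (log2 fold change -0.65, SE 0.21, edgeR adjusted p = 0.038). CD44, the hyaluronan receptor, opposite CD44-AS1, was also lower (log2 fold change -0.49, edgeR adjusted p = 0.0069). With library totals these 3 calls were lost (-0.97, -0.47 and -0.31, edgeR adjusted p from 0.053 to 0.16), and with DESeq2 those of DAG1 and DDR1 (DESeq2 adjusted p = 0.057 and 0.098), as with no filter on low counts (edgeR adjusted p = 0.051 and 0.063). The DAG1 call was also lost without control library 1 or 3 or SOX9 sgRNA library 2 or 3 (edgeR adjusted p from 0.052 to 0.087). That of DDR1 was lost without control library 1 or 2 or SOX9 sgRNA library 1 or 3 (edgeR adjusted p from 0.10 to 0.18), and that of CD44 without control library 3 (-0.41, edgeR adjusted p = 0.072).

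Among 9 tested proteoglycan and elastic fibre genes 2 were higher, against 2.99% of all tested rows, and 0 lower, with a median of 0.33. In lists this short, each count is set by 1 or 2 genes. EFEMP2, fibulin 4, which brings LOX to elastic fibres and lies opposite MUS81, had 23, 33 and 21 counts in control libraries and 74, 64 and 53 with the SOX9 sgRNA (log2 fold change 1.10, SE 0.28, edgeR adjusted p = 0.0037), a call lost without SOX9 sgRNA library 1 (0.95, edgeR adjusted p = 0.053). FBLN5, fibulin 5, an elastic fibre protein, had 11, 4 and 8 against 26, 19 and 28 (log2 fold change 1.41, SE 0.44, edgeR adjusted p = 0.029), a call kept in 1 of 6 fits without 1 library, the one without control library 1, and lost with DESeq2 (DESeq2 adjusted p = 0.093) and with no filter on low counts (edgeR adjusted p = 0.11). In the cartilage list 1 of 4 tested was higher: CHAD, chondroadherin, opposite ACSF2, with 12, 13 and 12 against 22, 46 and 25 counts (log2 fold change 1.12, SE 0.38, edgeR adjusted p = 0.049), a call lost without SOX9 sgRNA library 2 (0.60, edgeR adjusted p = 0.55) and without any 1 control library (1.09 to 1.14, edgeR adjusted p from 0.074 to 0.14). The CHAD call was also lost with DESeq2 (DESeq2 adjusted p = 0.15) and with no filter on low counts (edgeR adjusted p = 0.15). None was called among 11 genes of collagen folding and processing (median 0.07, 2 at an unadjusted p under 0.05), 8 matrix proteases and inhibitors (-0.01, 0 unadjusted) and 2 further collagens and laminins (0.31, 0 unadjusted), by edgeR. Of all 7959 tested rows, 1632 had an unadjusted edgeR p under 0.05.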

How the data were processed

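The authors deposited whole-number counts of fragments per gene, 1 table per library, without normalization. The submitters' processing notes name STAR 2.7.10a and the build GRCh37 (hg19). Counting was by featureCounts 1.6.2, per the file headers, over the exons of Ensembl release 75, whose file name marks rRNA and mitochondrial genes as left out, with strand setting 1 and with a fragment allowed to count for every gene it overlaps.

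Symbols were found for 51452 of 57209 identifiers, with 1 listed collagen-processing symbol matched to none. Exon overlaps came from bedtools 2.31.1. Counts were tested over the whole table in R 4.3.3 with edgeR 4.0.16 (filterByExpr at its defaults, TMM, robust quasi-likelihood test) and adjusted by Benjamini-Hochberg over 7959 rows. SE is the log2 fold change divided by the root of the F statistic. Alternatives were other scalings and filters, DESeq2 1.42.0, a replicate block and leaving out each library. Named were the genes past the threshold, the cartilage genes, 3 pairs with a row opposite, and the rows with most counts. The members, lists and tests were chosen with earlier results of these data known. The procedure was tested on simulated counts. In rows with 60 to 149 counts over 6 libraries it found 5 of 25 changes of 2-fold and 14 of 25 of 3-fold. In rows with 150 or more counts it found 21 of 25 and 24 of 25. A row with few counts and no call may therefore still differ.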

Additional observations from a re-analysis of the deposited data

How the results depend on the processing

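Calls among the listed rows rested on few counts. With plain library totals, 3 matrix genes were higher and 0 lower, 3 rows opposite were higher with a median of 0.15, 0 genes of the other lists were lower, and 625 genes were higher and 249 lower in all. With DESeq2, 0 matrix genes were called either way, 1 gene of the other lists was higher and 1 lower, and 130 genes were higher in all. With no filter on low counts 151 genes were higher in all, 1 gene of the other lists was higher and 1 lower, and the medians were 0.28 for 42 matrix genes and -0.16 for rows opposite. With the stricter filter (a minimum count of 30) 5 matrix genes were tested with 0 higher and a median of -0.40, 3 rows opposite were higher, and 1 gene of the other lists was higher. Genes with no exon opposite, fitted alone as an alternative chosen after seeing the data, kept the COL6A2 call (1.20, edgeR adjusted p = 0.037) and had 0 matrix genes lower of 8 tested, COL18A1 being left out by construction. Leaving out 1 library gave 0 to 2 matrix genes higher and 0 to 1 lower, and 1 to 2 genes of the other lists higher and 1 to 2 lower. Without any one library ENSG00000267650, SRFBP1, DLD, SLC19A1, COL4A2-AS1 and COL4A2-AS2 kept their calls, as under the other 6 settings run.

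The replicate block left 175 genes higher and 399 lower, against 238 and 479. COL6A2 (1.24, edgeR adjusted p = 0.028) and COL18A1 (-0.82, edgeR adjusted p = 0.023) stayed called with it, while ENSG00000273055 (-1.60, edgeR adjusted p = 0.068), DDR1 (-0.64, edgeR adjusted p = 0.063) and CHAD (1.07, edgeR adjusted p = 0.095) did not, and no other call of a listed gene, a row opposite or a gene of the other lists changed. Deviations of same-numbered libraries from their group means were hardly correlated over 4337 genes (0.0053, 0.018 and -0.028). The labels do not say whether these libraries were paired, and such correlations cannot tell how they were made.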
